A study of Homo sapiens with 41 samples.

Results

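Elongin A peaks were examined at 10 genes that respond to WNT signaling or govern intestinal cell fate, namely MYC, SOX9, AXIN2, LGR5, ASCL2, RNF43, TCF7, LEF1, CDX1 and CDX2. The 10 genes were listed by name, and a peak was assigned to one when it overlapped the gene with 1 kb on either side, or when it lay within 50 kb of the gene and touched no annotated gene with 1 kb on either side (an intergenic peak). This rule found 35 of the 8720 peaks obtained by CUT&RUN with a goat antibody, 11 of the 2338 peaks obtained by CUT&RUN with a mouse antibody, and 1 of the 186 ChIP-seq peaks. All samples were DLD1 cells, a human colorectal cancer cell line, wild type and without siRNA, and the CUT&RUN cells were fixed with formaldehyde. For the goat antibody the series holds 2 samples and 1 goat IgG control, and how the 2 samples entered the list is not stated. For the mouse antibody it holds 1 sample and 1 mouse IgG control. The paper names only goat IgG as the CUT&RUN control, so that mouse IgG as the control of the mouse antibody list is taken from the sample titles. For ChIP-seq there was 1 sample with its input library. No list has a column per sample, and none gives read totals, so that the depth behind each peak is unknown, no value has a replicate error, and no test between samples was possible. Differences below are therefore differences between peaks of 1 list, or values from different lists set side by side.

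In the WNT pathway, ligands bind Frizzled and LRP receptors and keep β-catenin from being degraded, and β-catenin then activates target genes together with the DNA-binding factors TCF7, LEF1, TCF7L1 and TCF7L2. AXIN2, a scaffold of the β-catenin destruction complex, and RNF43, a ubiquitin ligase that removes Frizzled receptors, are target genes whose products restrain the pathway. MYC, SOX9, LGR5 and ASCL2 mark or drive proliferating crypt cells, whereas the homeobox factors CDX1 and CDX2 specify intestinal identity. DLD1 cells carry truncated APC, another scaffold of the destruction complex, and their β-catenin is active without ligand. Elongin A is the largest subunit of Elongin, a factor that associates with elongating RNA polymerase II (RNAPII).

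With the goat antibody, 6 of the 10 genes had at least 1 peak (60.0%, Wilson 95% interval 31.3 to 83.2%), and these were MYC, SOX9, AXIN2, LGR5, RNF43 and CDX2. Of all 20175 protein-coding genes, 21.7% had one. With the mouse antibody, 5 genes had a peak (50.0%), the same genes without SOX9, and the share of all protein-coding genes was 7.79%. The ChIP-seq list had a peak at SOX9 alone, and at 0.783% of protein-coding genes. Longer genes had peaks more often, with goat antibody peaks at 13.2% of protein-coding genes of up to 13.9 kb (short), 19.6% of those between (middle length) and 32.3% of those above 50.4 kb (long), classes of equal size. With the mouse antibody these shares were 4.33, 6.99 and 12%. In these classes, the genes with a goat antibody peak were 3 of 4 short genes (MYC, SOX9 and CDX2, but not ASCL2), 1 of 3 genes of middle length (AXIN2), and 2 of 3 long genes (RNF43 and LGR5, but not LEF1). Both antibodies gave a peak at MYC, AXIN2, LGR5, RNF43 and CDX2, and at 4.74% of all protein-coding genes. A promoter peak, with its centre between 1000 bp upstream and 100 bp downstream of any annotated start, was found with the goat antibody at MYC, SOX9 and RNF43 and at 8.97% of protein-coding genes. It was thus present at 3 of the 6 genes with a peak, against 41.3% of all protein-coding genes with a peak. With the mouse antibody, MYC alone had one, as did 2.92% of protein-coding genes. Intervals of shares cover counting error only, and the 10 genes are not a random sample of genes. They were chosen with earlier results of these data known, so that shares above those of all protein-coding genes are described here and not tested.

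**Figure D1:**
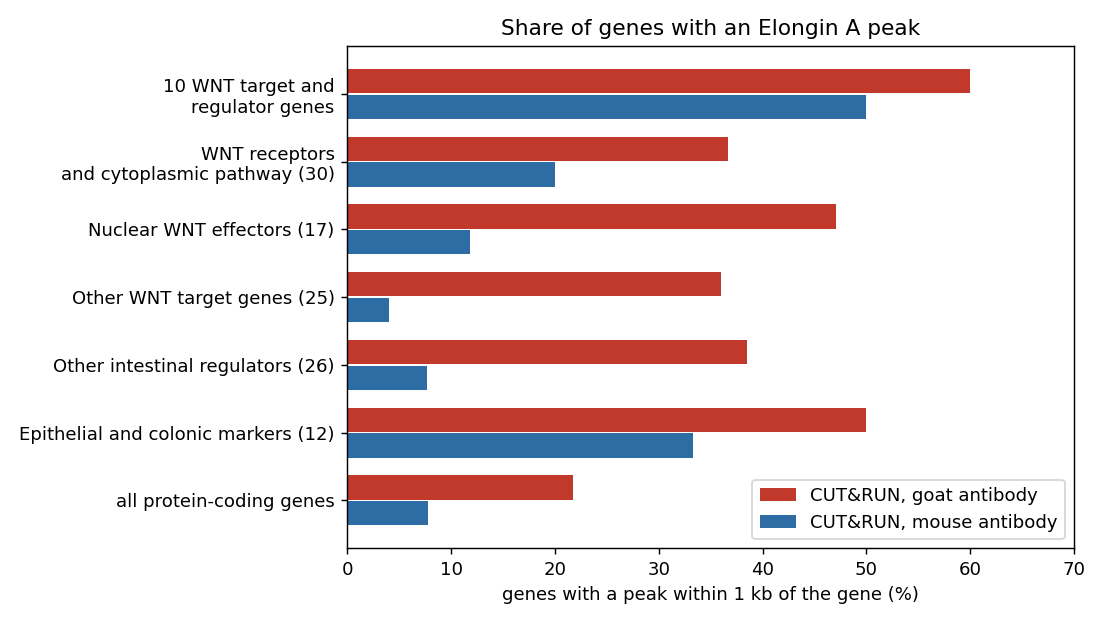
Share of genes with at least 1 Elongin A peak within 1 kb of the gene (percent, horizontal axis), for the goat antibody (red) and the mouse antibody (blue) CUT&RUN lists; the number of genes in each wider list stands in parentheses. The 10 genes described here had peaks at 60.0% and 50.0%, and all protein-coding genes at 21.7% and 7.79%.

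The sequences at 7 goat antibody peaks are given below as 300 bp of the plus strand of hg19 centred on the summit, the highest point of the peak. The first 4 are the strongest peaks at SOX9, AXIN2, RNF43 and LGR5. The other 3 were chosen after their values were seen, because they hold a TCF/LEF word, CTTTGAT or CTTTGAA on either strand, which is shown in capitals.
SOX9, -495 bp, chr17:70116516-70116815: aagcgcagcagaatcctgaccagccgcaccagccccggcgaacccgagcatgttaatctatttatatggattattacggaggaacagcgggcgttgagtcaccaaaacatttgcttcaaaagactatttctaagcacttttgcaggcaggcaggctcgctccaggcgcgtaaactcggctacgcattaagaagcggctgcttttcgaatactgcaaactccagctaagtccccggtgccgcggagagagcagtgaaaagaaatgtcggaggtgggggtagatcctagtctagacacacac
AXIN2, intron 3, chr17:63538986-63539285: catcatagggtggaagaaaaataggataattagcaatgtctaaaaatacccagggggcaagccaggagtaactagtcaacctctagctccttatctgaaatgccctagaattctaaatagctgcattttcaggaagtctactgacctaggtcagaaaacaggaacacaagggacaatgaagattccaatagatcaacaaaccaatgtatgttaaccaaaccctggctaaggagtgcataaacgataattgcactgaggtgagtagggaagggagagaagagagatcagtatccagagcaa
RNF43, intron 2, +38.0 kb, chr17:56456737-56457036: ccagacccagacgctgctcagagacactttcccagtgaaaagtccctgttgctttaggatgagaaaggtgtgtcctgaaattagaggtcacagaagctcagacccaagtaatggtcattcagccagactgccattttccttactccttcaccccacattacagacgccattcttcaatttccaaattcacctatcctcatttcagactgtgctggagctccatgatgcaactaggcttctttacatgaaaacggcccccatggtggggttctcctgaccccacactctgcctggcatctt
LGR5, intron 1, chr12:71866253-71866552: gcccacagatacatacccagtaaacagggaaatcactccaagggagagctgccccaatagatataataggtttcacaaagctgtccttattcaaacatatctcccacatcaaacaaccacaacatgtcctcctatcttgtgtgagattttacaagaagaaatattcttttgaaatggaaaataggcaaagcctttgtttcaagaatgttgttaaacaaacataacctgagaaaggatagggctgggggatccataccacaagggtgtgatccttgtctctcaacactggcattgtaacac
RNF43, intron 2, +22.7 kb, chr17:56472063-56472362: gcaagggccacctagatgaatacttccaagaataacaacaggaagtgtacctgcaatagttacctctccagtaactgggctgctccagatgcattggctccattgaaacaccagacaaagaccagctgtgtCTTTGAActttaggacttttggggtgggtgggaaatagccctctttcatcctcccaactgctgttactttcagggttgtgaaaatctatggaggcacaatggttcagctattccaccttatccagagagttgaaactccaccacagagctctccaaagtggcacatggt
CDX2, intron 1, chr13:28540261-28540560: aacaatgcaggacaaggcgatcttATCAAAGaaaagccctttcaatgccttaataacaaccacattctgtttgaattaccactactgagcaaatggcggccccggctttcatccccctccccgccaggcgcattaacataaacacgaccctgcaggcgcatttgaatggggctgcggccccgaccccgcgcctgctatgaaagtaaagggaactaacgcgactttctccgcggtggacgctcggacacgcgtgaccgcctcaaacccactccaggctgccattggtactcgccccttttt
AXIN2, intergenic, chr17:63512022-63512321: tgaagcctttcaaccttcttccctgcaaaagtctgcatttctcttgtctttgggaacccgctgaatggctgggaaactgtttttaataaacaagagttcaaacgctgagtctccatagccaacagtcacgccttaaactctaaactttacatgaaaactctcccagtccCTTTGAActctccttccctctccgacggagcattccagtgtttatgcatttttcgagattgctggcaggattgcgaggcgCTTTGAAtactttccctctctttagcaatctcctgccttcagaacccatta
Of the 35 goat antibody peaks at or near the 10 genes, 7 (20%) held a TCF/LEF word within 300 bp centred on the summit, and 12.8% of all 8720 peaks did. These 7 were 3 peaks in RNF43, 1 in AXIN2, the intergenic peak near AXIN2 with 2 words, 1 in the first intron of CDX2, and 1 at MYC. The strongest peaks at SOX9, AXIN2, RNF43, LGR5 and CDX2 held none, whereas the strongest peak at MYC, with a fold enrichment of 7.77, held 1. A CDX word, TTTATNG on either strand, was found at 8 of the 35 peaks (22.9%) and at 21.4% of all peaks. None of the 7 printed sequences holds a CDX word. The GC content of the 300 bp had a median of 43.7% at the 35 peaks and 44.3% at all peaks. A word match describes the letters in this window and is not a measurement of factor binding.

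The 34 goat antibody peaks at the genes themselves had a median fold enrichment over IgG of 4.32, and the median of all 8720 peaks was also 4.32. Their values ran from 2.88 to 8.48. Of the 34 peaks, 17 were above the median of the whole list and 5 ranked above 90% of it, namely the strongest peak at MYC, 2 peaks at SOX9 and 2 at AXIN2. The medians were thus alike, and the strong peaks lay at MYC, SOX9 and AXIN2. Their median width was 472.5 bp, against 362 bp for the list, and 5 of 34 were at least 1 kb wide, as were 4.51% of all peaks. By the canonical transcript of each gene, 22 summits lay in introns, 4 in exons, 4 upstream of the start and 4 past the end. In hg19, the 32 bp sequence at the summit was unique for each of the 35 goat antibody, 11 mouse antibody and 1 ChIP-seq peaks.

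**Figure D2:**
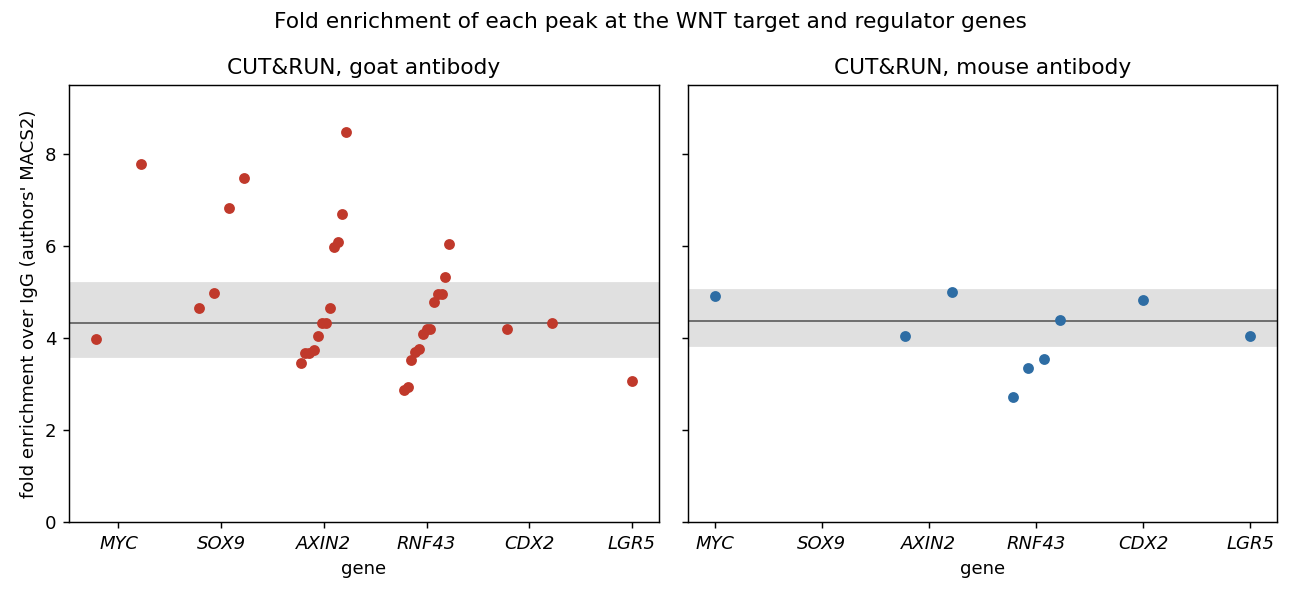
Fold enrichment over IgG (vertical axis, as the authors' MACS2 gave it) of each peak at the 6 genes with peaks, for the goat antibody (left) and the mouse antibody (right); the horizontal position within a gene only separates the points. The line is the median and the band the interquartile range of all peaks of the list, and the points spread from 2.88 to 8.48 on the left, on both sides of a median of 4.32.

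MYC and SOX9, both transcription factor genes, had peaks at their promoters. MYC (chromosome 8, 128747680 to 128755197, plus strand) had 2 goat antibody peaks, both with summits upstream of its canonical start. The stronger one (128747720 to 128748097) reached a fold enrichment of 7.77 with a −log10 q-value of 12.0, ranked 271 of 8720, and had its summit at -581 bp from the canonical start and at -9 bp from the nearest annotated start. The weaker one (128746537 to 128747106) reached 3.98 and lay at -1770 bp. Only the weaker peak was found with the mouse antibody (128746561 to 128746831), where it reached 4.92. The mouse antibody list gives no value for the stronger site, so that the order of the 2 sites cannot be compared between the lists. Both sites also lie in CASC11, a long noncoding RNA gene that overlaps the first part of MYC on the other strand, and the peaks carry no strand.

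SOX9 (chromosome 17, 70117161 to 70122557, plus strand) had 4 goat antibody peaks in pairs at its ends. Summits at -495 and 74 bp from the start had fold enrichments of 7.49 and 6.82 and ranked 344 and 588, and summits at 108 and 550 bp past the end had 4.65 and 4.97. The only ChIP-seq peak at the 10 genes, with a fold enrichment of 5.11 and a −log10 q-value of 3.28, had its summit at 726 bp from the start in exon 1, and thus lay between the pairs and overlapped none of them. It ranked 159 of the 186 ChIP-seq peaks, whose median fold enrichment was 9.99. No mouse antibody peak lay within 1 kb of SOX9, and the nearest was 90 kb away. SOX9-AS1, an antisense long noncoding RNA gene, spans the same sequence.

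AXIN2 and RNF43 held 25 of the 34 goat antibody peaks, spread along AXIN2 and mostly within intron 2 of RNF43. AXIN2 had 12 peaks and RNF43 had 13. Only 21 protein-coding genes (0.104%) had at least 10, and a protein-coding gene with any peak had a median of 1, with 2970 of 4378 genes at exactly 1. RNF43 ranked 5 in number of peaks, a position shared by 5 genes, and AXIN2 ranked 10, a position shared by 3. The 5 genes include ENSG00000285897, a readthrough gene that overlaps all of RNF43 and holds the same 13 peaks. These peaks thus counted more than once in the ranks and among the 21 genes. The peaks covered 24.4% of AXIN2 with its flanks and 13.0% of RNF43, and the median over protein-coding genes with a peak was 0.937%. By this share AXIN2 ranked 120 and RNF43 ranked 228 among protein-coding genes. The short gene SOX9, with 4 peaks, lay between them with 16.4% and rank 175. The share was 9.68% at CDX2, 8.46% at MYC and 0.388% at LGR5. AXIN2 (33.1 kb) is of middle length and RNF43 (63.9 kb) is long. The counts depended on the limit set on fold enrichment. With a q-value under 0.001, 10 peaks remained at each gene (rank 6 for both, shared by 7 genes). With a fold enrichment of at least 5, 4 remained at AXIN2 (rank 12, shared by 15 genes) and 2 at RNF43 (rank 84, shared by 216). Merging peaks within 1 kb was an alternative added after the data were seen. It gave 7 regions at AXIN2 (rank 26, shared by 15 genes) and 12 at RNF43 (rank 2, shared by 3).

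**Figure D3:**
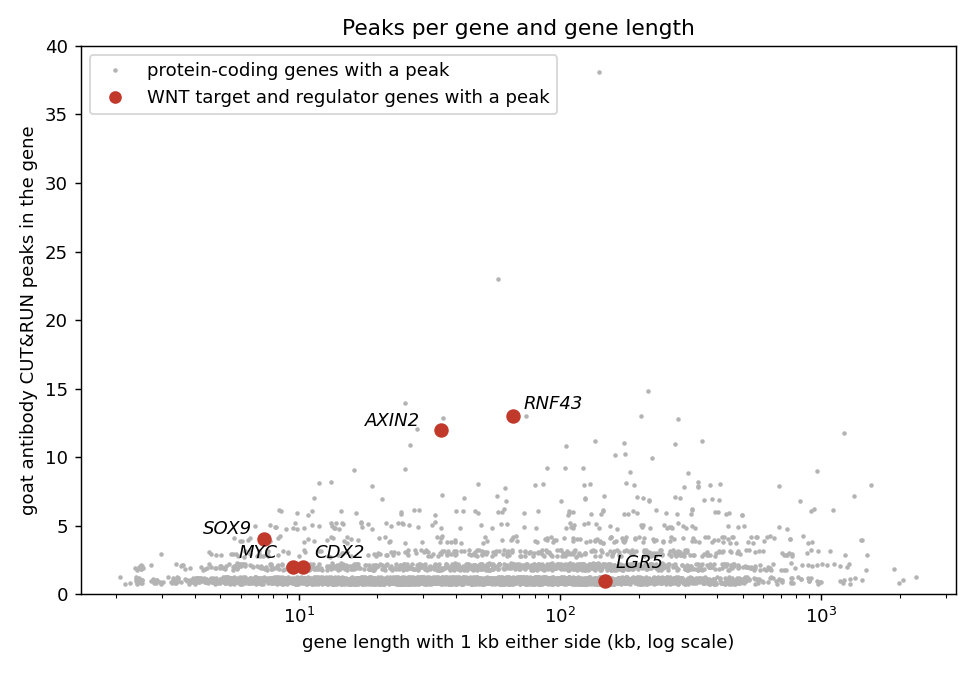
Number of goat antibody CUT&RUN peaks in each protein-coding gene with at least 1 peak (vertical axis, gray points shifted by a small amount to separate them) against gene length with 1 kb on either side (kb, log scale). AXIN2 with 12 and RNF43 with 13 peaks stand well above most genes of their length, and MYC, CDX2, SOX9 and LGR5 hold 1 to 4.

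At AXIN2 (chromosome 17, 63524681 to 63557766, minus strand), no peak lay in a promoter window. From start to end, the 12 peaks had fold enrichments of 3.74, 3.68, 6.09, 8.48, 4.66, 4.06, 3.45, 4.33, 6.69, 3.68, 5.98 and 4.32. The first summit was 4.49 kb from the start, and 9 of the 12 lay nearer to the end of the gene than to the start. The strongest peak of all 10 genes, in intron 3 from 63537341 to 63540024, was 2684 bp wide, had a −log10 q-value of 31.6 and ranked 177. A second strong peak, in intron 10 from 63527287 to 63528520, had a fold enrichment of 6.69. The last 3 peaks, with 3.68, 5.98 and 4.32, lay in exon 11, the last exon. With the mouse antibody, AXIN2 had 2 peaks, and both overlapped goat antibody peaks. One, with a fold enrichment of 4.06, overlapped the strongest peak in intron 3, and the other, with 5.0, overlapped 2 of the peaks in exon 11. A readthrough gene known only by the identifier ENSG00000266076 overlaps part of AXIN2. It shared 7 of the 12 peaks, with summits from 4.49 to 23.6 kb from the start of AXIN2.

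At RNF43 (chromosome 17, 56431037 to 56494956, minus strand), 11 of the 13 peaks lay in intron 2, between 11.5 and 38.0 kb from the start. From start to end, the intron 2 peaks had fold enrichments of 5.32, 3.53, 4.96, 2.88, 4.1, 4.95, 3.70, 4.79, 2.95, 4.20 and 6.04, and no exon held a summit. The median distance between neighboring summits at RNF43 was 2.97 kb, and at AXIN2 it was 2.08 kb. A peak with a fold enrichment of 3.77 lay at -375 bp from the start, and 1 of the intron 2 peaks, with 3.53, lay in the promoter window of a shorter RNF43 transcript. The last peak (56429829 to 56431302) reached 4.19, had its summit 881 bp past the end and also lay within 1 kb of SUPT4H1, a gene for a subunit of the elongation factor DSIF. With the mouse antibody, RNF43 had 4 peaks, with fold enrichments of 4.40, 3.36, 2.72 and 3.55 from start to end. The peak with 2.72 overlapped the goat antibody peak with a TCF/LEF word 22.7 kb from the start, the one with 3.55 overlapped the peak past the end, and the others overlapped none. The peak with 2.72 was also the weakest mouse antibody peak of the 10 genes, at percentile 0.920 of its list. TSPOAP1-AS1, on the other strand, overlaps nearly all of RNF43, and the readthrough gene ENSG00000285897 overlaps all of it. The peaks carry no strand and lie in the spans of more than 1 gene, so that they cannot be given to RNF43 alone.

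**Figure D4:**
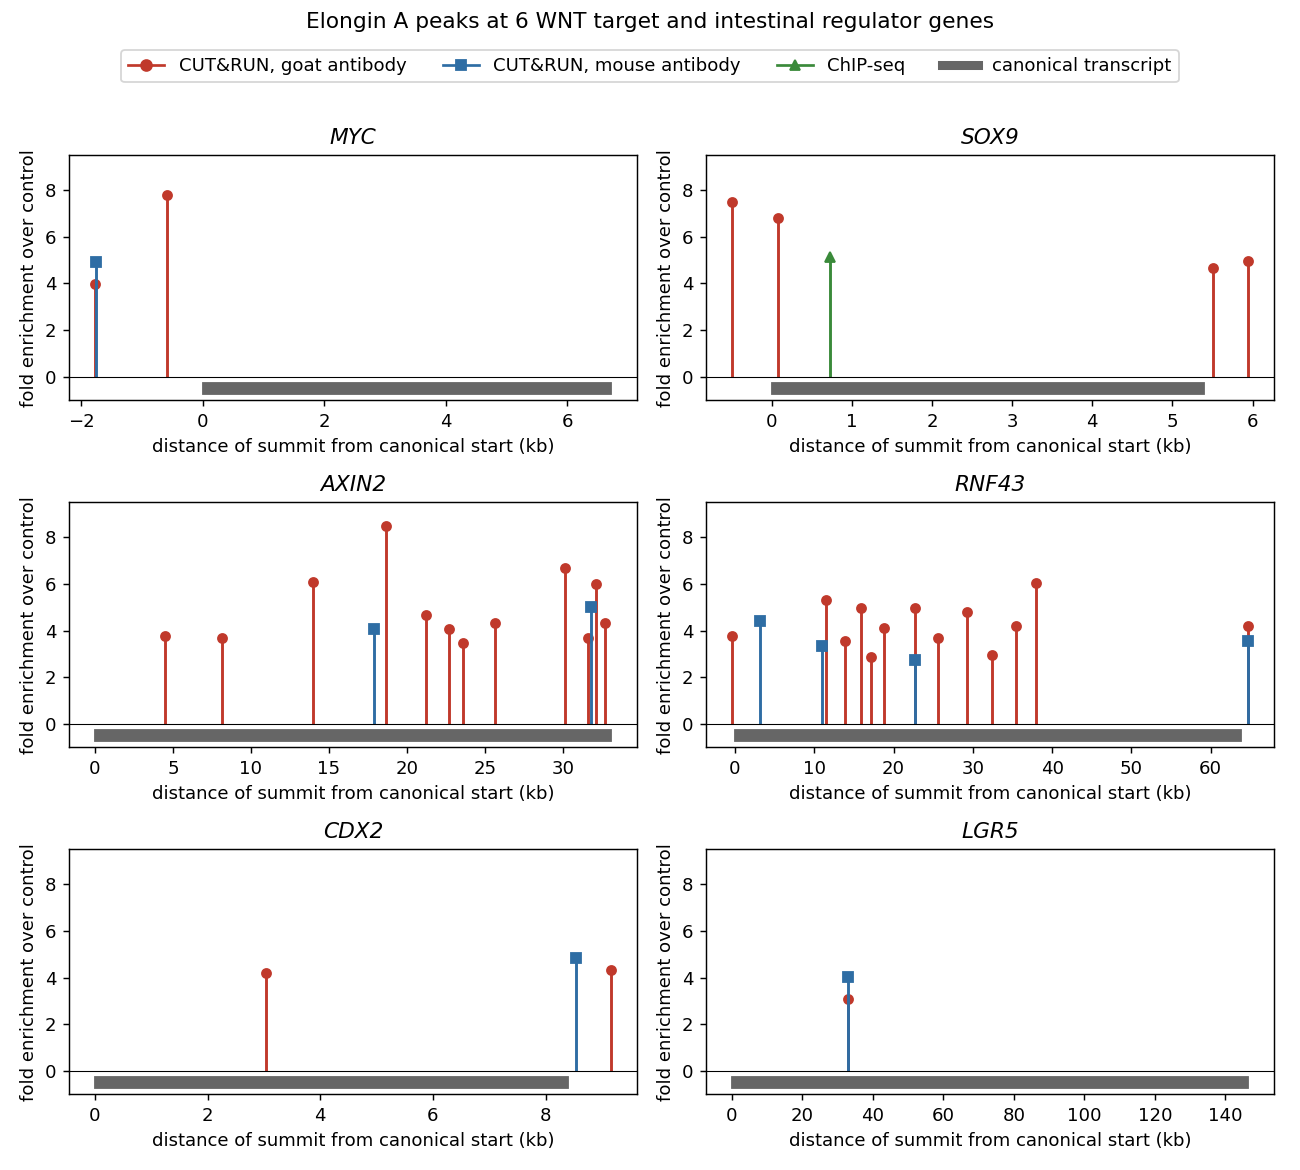
Elongin A peaks at MYC, SOX9, AXIN2, RNF43, CDX2 and LGR5. Each stem marks a summit by its distance from the canonical start (kb, horizontal axis, in the direction of transcription) and its fold enrichment over control (vertical axis), for the goat antibody (red circles), the mouse antibody (blue squares) and ChIP-seq (green triangle), with the canonical transcript as a gray bar. Stems stand at the promoter of MYC, at both ends of SOX9, and along AXIN2 and RNF43.

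CDX2 and LGR5 had few peaks, and none of their goat antibody peaks was as strong as the strongest at MYC, SOX9, AXIN2 or RNF43. CDX2 (chromosome 13, 28535055 to 28543452, minus strand) had a goat antibody peak in intron 1 with a fold enrichment of 4.19, the one with a TCF/LEF word, and another 770 bp past the end with 4.32. The mouse antibody peak at CDX2, with a fold enrichment of 4.82, lay 141 bp past the end, between those peaks, and overlapped neither. A stronger goat antibody peak, with a fold enrichment of 7.54, a −log10 q-value of 17.1 and rank 326, lay 4.25 kb past the end of CDX2 at the long noncoding RNA gene LINC00543, and was not assigned to CDX2 because it touches that gene. LGR5 (chromosome 12, 71833578 to 71980090, plus strand), which encodes a receptor for R-spondins and marks intestinal stem cells, had 1 goat antibody peak in its 147 kb. This peak in intron 1 (71866331 to 71866906) had a fold enrichment of 3.07, which is at percentile 9.29 of the list. The mouse antibody gave 1 peak at the same place (71866485 to 71866705), with 4.04. Thus 1 of the weakest goat antibody peaks was among those found with both antibodies.

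ASCL2, TCF7, LEF1 and CDX1 had no peak in any of the 3 lists. ASCL2 is a stem cell transcription factor, TCF7 and LEF1 are DNA-binding partners of β-catenin, and CDX1 is the homeobox relative of CDX2. The nearest goat antibody peak was 64.5 kb from ASCL2, 151 kb from LEF1 and 166 kb from CDX1. Near TCF7 (37.2 kb long) it was 23.5 kb past the end, at SKP1, a ubiquitin ligase subunit gene, with a fold enrichment of 5.92. The absence of a peak means that none passed the authors' threshold, and at an unknown depth it does not show that Elongin A was absent.

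Intergenic peaks were few. The goat antibody list had 1, 12.4 kb from the end of AXIN2 (63511976 to 63512277 on chromosome 17), with a fold enrichment of 4.11 and 2 TCF/LEF words. The mouse antibody list had 2, neither of which overlapped a goat antibody peak. One lay 39.5 kb past MYC (128794670 to 128794932) with a fold enrichment of 6.11, the highest of the 11 mouse antibody peaks and rank 150 of 2338, and the other lay 32.8 kb past AXIN2 with 4.71. Over the whole lists, 17.5% of goat antibody and 20.2% of mouse antibody peaks were intergenic by the same definition.

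The lists were compared at these genes with an overlap of at least 1 bp. Of the 35 goat antibody peaks, 7 (20%, Wilson 95% interval 10.0 to 35.9%) overlapped a mouse antibody peak, and 8.33% of all goat antibody peaks did. These 7 were 1 at MYC, 3 at AXIN2, 1 at LGR5 and 2 at RNF43. The interval treats peaks as independent, although many are neighbors in AXIN2 and RNF43, and 2 at AXIN2 overlapped the same mouse antibody peak. The goat antibody peaks at the genes were also wider than the list (medians 472.5 and 362 bp), and a part of width in these shares was not tested. From the other side, 6 of the 11 mouse antibody peaks (54.5%, 28.0 to 78.7%) overlapped a goat antibody peak, against 32.4% of the whole list. No goat antibody peak of the 35 overlapped a ChIP-seq peak, while 0.837% of the whole list did, and the ChIP-seq peak at SOX9 overlapped no goat antibody peak, while 41.4% of all ChIP-seq peaks did. The 5 goat antibody peaks ranked above 90% of the list included 1 that was found with the mouse antibody, the AXIN2 intron 3 peak.

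The wider pathway was described with 4 lists of 98 other genes, of which 38 (38.8%) had a goat antibody peak. The share of all protein-coding genes was 21.7%. The lists hold many long genes, 38 of 98 being above 50.4 kb, where 32.3% of genes had a peak. Among 30 WNT receptors and cytoplasmic components, 11 had a goat antibody peak (36.7%) and 6 a mouse antibody peak (20%). The shares of all protein-coding genes were 21.7% and 7.79%. Of these 30 genes, 15 were above 50.4 kb, a class in which 32.3% and 12% of genes had a peak. APC had the strongest goat antibody peak of this list, a promoter peak with a fold enrichment of 10.5, above all peaks of the 10 genes. ZNRF3, a paralog of RNF43 with the same role, had 3 goat antibody peaks of up to 5.29 and 2 mouse antibody peaks of up to 6.01, and the receptor gene LRP5 had 1 goat antibody peak with 4.66. The R-spondin receptor genes LGR4 and LGR6 had 1 goat antibody peak each, as did LGR5 and 2970 of the 4378 protein-coding genes with a peak. Both reached 3.70, below the list median of 4.32 and above the 3.07 at LGR5. Each also had 1 mouse antibody peak, with 5.18 at LGR4 and 3.57 at LGR6. FZD2, a Frizzled receptor gene, also had 1 in both lists, with 2.92 and 4.41.

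Among 17 nuclear effectors of the pathway, 8 had a goat antibody peak (47.1%) and 2 a mouse antibody peak (11.8%). The shares of all protein-coding genes were 21.7% and 7.79%. Of these 17 genes, 10 were above 50.4 kb, a class in which 32.3% and 12% of genes had a peak. TCF7L2, the main TCF of the intestine, had 7 goat antibody peaks of up to 7.23 with 1 at a promoter, and its relative TCF7L1 had 1 with 3.47, whereas TCF7 and LEF1 had none. The corepressor gene CTBP2 had 8 goat antibody peaks of up to 6.78 and 3 mouse antibody peaks of up to 5.85, and CTNNBIP1, a gene for an inhibitor of β-catenin, had 3 goat antibody peaks of up to 5.67. Of 25 other WNT target genes, 9 had a goat antibody peak (36%) and 1 a mouse antibody peak (4%). The former was above the 21.7% and the latter below the 7.79% of all protein-coding genes. PPARD had a peak with 7.78, and with 5.58 in the mouse antibody list, ETS2 had 3 of up to 6.99, and CCND1, the cyclin D1 gene, had 4 of up to 6.74 that covered 36.3% of the gene with its flanks. DKK1, a gene for a secreted WNT inhibitor that was named after its values were seen, had no CUT&RUN peak but 1 ChIP-seq peak with 4.24.

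Of 26 other intestinal regulators, 10 had a goat antibody peak (38.5%, against 21.7% of all protein-coding genes) and 2 a mouse antibody peak (7.69%, close to the 7.79% of all protein-coding genes). KLF5, a crypt transcription factor gene, had 6 peaks of up to 7.97. GATA6 had 5 of up to 7.70 and 2 mouse antibody peaks of up to 4.84. EHF had 2 goat antibody peaks of up to 4.72 and 1 mouse antibody peak with 3.43. The labeled cell type was checked with the same lists. Of 12 epithelial and colonic marker genes, 6 had a goat antibody peak (KRT8, KRT18, CLDN4, EPCAM, GPA33 and CDH1). The others, KRT19, KRT20, VIL1, CDH17, LGALS4 and CLDN3, had no peak in any list. A goat antibody peak was also found at 1 of 5 blood, 0 of 4 fibroblast, 1 of 2 endothelial and 1 of 3 neuronal marker genes. These 3 genes, PTPRC, VWF and ELAVL4, had fold enrichments of 3.46, 2.67 and 6.06. With the mouse antibody, 4 epithelial and colonic, 1 blood, 0 fibroblast, 1 endothelial and 0 neuronal marker genes had a peak. Peak lists do not measure expression, so that this check is a weak one.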

How the data were processed

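Elongin A CUT&RUN and ChIP-seq were analysed from 3 peak lists, to which 7 of the 41 samples of the series were matched by their labels. For the authors' files, read pairs were mapped to hg19 by Bowtie2 (2.3.4.1), duplicates were dropped by Picard (1.88), and MACS2 (2.1.1) was run with its defaults. The deposited fold enrichment is the ratio of the signal to the control. The deposited −log10 q-value is the false discovery measure of MACS2. The deposited score is a rescaled q-value, and neither it nor the deposited p-value was used. How the authors combined the 2 goat antibody replicates is not stated in the sources used here. Peak calling, fold enrichment and significance all move with depth, so that numbers of peaks are not comparable between lists.

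Positions were converted to count from 1. Genes, including 20175 protein-coding ones, were those of GENCODE 44 in its GRCh37 (hg19) version, and sequence came from that build. Each gene span covered all annotated transcripts. Distances were taken from the canonical transcript, and a promoter peak had its centre in the promoter window of any transcript. The rule for named genes covered all 10 genes with each of their peaks, and, from 4 wider gene lists, the 3 genes with the highest goat antibody fold enrichment and each gene with a peak in more than 1 peak list. A gene that this rule selects is not reported here. The 10 genes and the lists were chosen with earlier results of these data known. No test was made. Alternatives were stricter q-values (0.01 and 0.001), a fold enrichment of at least 5, other flanks, distances and promoter windows, summits, basic transcripts and other overlap rules. All 200 peaks planted in gene windows of simulated data were recovered. Python 3.11.15, numpy 2.4.6, scipy 1.17.1, pandas 2.3.3, pysam 0.24.0 and matplotlib 3.10.9 were used. The other 34 samples (RNAPII ChIP-seq, RNA-seq and 4sU-seq) were not analysed here. Of the marker genes, PECAM1 was not used here.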

Additional observations from a re-analysis of the deposited data

How the results depend on the processing

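Of 72 recomputed values under 15 alternative settings, 57 stayed within 1.5 times the value reported (for the median, within 1 SD of the peaks). Some of the 57 could not move, as an overlap of 0 with ChIP-seq peaks cannot rise under a stricter limit. The ChIP-seq gene counts rest on 1 peak that passed every limit. A change from 6 to 4 genes also counted as within 1.5 times. The number of genes with a goat antibody peak was 6 in all settings tried but a fold enrichment of at least 5, which left 4. Of all protein-coding genes, 20.2% had a goat antibody peak at a q-value under 0.01 and 17.7% at one under 0.001. These shares were 18.6% without flanks, 24.9% with 5 kb on either side, and 8.69% with a fold enrichment of at least 5. That fold enrichment limit moved most counts. It left 1 gene with a mouse antibody peak (against 2.35% of all protein-coding genes) and 1 such peak at the genes. Goat antibody peaks at the genes fell to 9, with a median fold enrichment of 6.69. Intergenic peaks fell to 0 goat and 1 mouse antibody peaks, and 1 goat antibody peak was overlapped by a mouse antibody peak. A q-value under 0.001 left 5 mouse antibody peaks at the genes, 1 intergenic, and 3 goat antibody peaks overlapped by a mouse antibody peak. Without flanks, 3 genes had a mouse antibody peak, as the peaks at MYC and CDX2 lie just outside the genes. The share of all protein-coding genes was then 6.30%. Intergenic goat antibody peaks numbered 2 with a distance of 100 kb, with protein-coding genes only, or by the peak centre, and a distance of 20 kb left 0 mouse antibody ones. Merging peaks within 1 kb, added after the data were seen, gave 25 goat antibody regions at the genes. No paired analysis was possible because the lists hold no values per replicate, and for the same reason no replicate could be left out. Depth is unknown, so that a gene without a peak cannot be told from one below detection.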
